A study of Rattus norvegicus with 7 samples.

Results

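The nuclear genes that encode subunits of the mitochondrial respiratory chain and ATP synthase were examined in RNA sequencing of the meibomian gland of rats, with and without ultraviolet B (UVB) irradiation of the eyelid. Genes were taken by symbol (those starting with Nduf and a, b, c, s or v, with Sdh and a to d alone, with Uqcr, with Cox and 4 to 8, or with Atp5) and by a biotype of protein_coding in the deposited tables. This rule gave 53 of the 17246 genes, which were 24 subunits of complex I, 4 of complex II, 5 of complex III and 14 of complex IV, and 6 complex I assembly factors whose symbols begin with Ndufaf. A further 26 rows had a matching symbol and no biotype, among them all 16 rows of complex V, and 1 row, Ndufs6, was marked as a processed pseudogene. RefSeq (GRCr8) lists 25 of these 26 as protein coding, so they are described beside the members and always named as rows without a biotype.

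All animals were wild-type female Sprague-Dawley rats aged 3 months, an albino outbred stock. The UVB group held 3 libraries, from rats whose upper eyelids were shaved and given 300 mJ/cm2 in sessions of 5 min, one a day for 5 days. The control group held 4 libraries labelled as having no treatment; the labels do not say whether these lids were shaved or how long after the last session the glands were taken. The controls carry the letters a to d here and the UVB libraries a to c, which pair nothing. That each library came from its own animal is not stated, so the tests measure the spread between these libraries.

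The respiratory chain sits in the inner mitochondrial membrane. Complex I takes electrons from NADH and complex II, which is also the succinate dehydrogenase of the citric acid cycle, takes them from succinate. Both pass them through ubiquinone to complex III, through cytochrome c to complex IV, and so to oxygen, and complex V uses the proton gradient built on the way to make ATP. Most subunits are encoded in the nucleus and the rest in mitochondrial DNA, and many nuclear subunit genes are known to carry sites for the factors NRF1, GABP (also called NRF-2), YY1 or ERR near their start. Meibocytes, the oil-producing cells of the gland, fill with lipid and burst to release it.

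Promoter sequences are shown for the genes past the test threshold that have an entry in the RefSeq table. Beside them stand a complex I and a complex II gene that hardly moved. Each runs 5′ to 3′ on the gene's strand from 250 bases before the start to 30 bases after it, a length of 280 bases, with RefSeq GRCr8 coordinates, a build other than the authors' rn7. Capitals mark the letters GCGCANGCG (NRF1), CCGGAAG (GABP), AAGATGGC (YY1) or TNAAGGTCA (ERR) on either strand. The Cox7b window lies at chrX:75148786-75149065, plus strand, that of Ndufb11 at chrX:4126067-4126346, plus strand and that of Atp5mc3 at chr3:79220635-79220914, minus strand. Those of Ndufa6 and Sdha lie at chr7:115750288-115750567, minus strand, and chr1:30764303-30764582, plus strand.
Cox7b: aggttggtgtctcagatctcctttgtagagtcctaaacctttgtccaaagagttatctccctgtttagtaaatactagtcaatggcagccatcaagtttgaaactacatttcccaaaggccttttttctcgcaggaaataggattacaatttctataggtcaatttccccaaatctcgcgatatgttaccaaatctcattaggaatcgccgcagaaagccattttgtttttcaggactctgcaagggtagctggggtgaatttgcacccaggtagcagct
Ndufb11: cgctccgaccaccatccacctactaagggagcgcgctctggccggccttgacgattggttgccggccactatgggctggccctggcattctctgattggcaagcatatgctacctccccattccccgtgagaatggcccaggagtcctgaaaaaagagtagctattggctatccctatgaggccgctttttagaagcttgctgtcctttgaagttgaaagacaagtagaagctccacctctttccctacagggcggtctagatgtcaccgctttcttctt
Atp5mc3: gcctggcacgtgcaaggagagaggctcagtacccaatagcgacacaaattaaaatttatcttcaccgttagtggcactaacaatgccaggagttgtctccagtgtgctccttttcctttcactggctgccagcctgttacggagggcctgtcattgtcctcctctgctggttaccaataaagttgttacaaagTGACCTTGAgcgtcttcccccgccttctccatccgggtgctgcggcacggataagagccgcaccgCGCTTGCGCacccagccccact
Ndufa6: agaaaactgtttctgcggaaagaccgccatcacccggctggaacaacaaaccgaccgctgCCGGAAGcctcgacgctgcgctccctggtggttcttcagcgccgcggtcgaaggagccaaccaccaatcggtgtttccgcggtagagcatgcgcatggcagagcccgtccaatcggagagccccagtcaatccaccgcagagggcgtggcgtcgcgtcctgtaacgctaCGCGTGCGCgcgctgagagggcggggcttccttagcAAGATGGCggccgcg
Sdha: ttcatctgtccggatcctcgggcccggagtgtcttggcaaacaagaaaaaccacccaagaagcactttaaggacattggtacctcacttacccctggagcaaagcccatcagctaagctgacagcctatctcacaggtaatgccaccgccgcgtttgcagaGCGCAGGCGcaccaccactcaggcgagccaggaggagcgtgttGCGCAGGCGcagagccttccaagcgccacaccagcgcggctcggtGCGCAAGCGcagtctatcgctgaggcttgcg
No match to the 4 motifs lay in the windows of Cox7b and Ndufb11, whereas Atp5mc3 held an ERR and an NRF1 match, Ndufa6 a GABP, an NRF1 and a YY1 match, and Sdha 3 NRF1 matches. Cox6c has no entry in the table. The absence of a match says only that these letters are not in the window. Other members near 0 had no match in windows of 300 bases, namely Ndufa4 (log2 fold change 0.04), Ndufc2 (0.04) and Cox5a (0.05). Ndufs1 (-0.0023) had a GABP match. Among members with larger differences, Ndufs8 (0.22) held a GABP match and Ndufs5 (0.15) an NRF1 match. Whether matches and fold changes are related was not tested.

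Over windows of 300 bases for the 46 members with an entry, the NRF1 letters occurred in 11 (23.9%), against 6.26% of all 27457 promoters of the table. GABP letters occurred in 13 of the 46 (28.3%, against 9.22% of all) and YY1 letters in 9 (19.6%, against 3.44%). An ERR match was found in 1 member promoter, Sdhd (2.17%, against 1.15%), and TATAAA in 1 (2.17%, against 14.3% of all). The letters CANNTG (E-box) occurred in 28 (60.9%, against 71.6%) and CTANNNNTA (part of the MEF2 site) in 7 (15.2%, against 22.2%). Among the 22 promoters of rows without a biotype, 7 held NRF1 letters, 4 GABP, 5 YY1 and 2 ERR. The CANNTG search can overlap the other motifs. These shares describe the sequences and were not tested.

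Library totals ran from 20680237 to 28784941 counts. The summed level of 12 meibocyte markers was 46115 to 56084 TPM in the controls and 42472 to 49354 after UVB. TPM is a transcript level corrected for gene length and scaled to a common library total. Over all 7 libraries the means of the 12 ran from 104 to 27410 TPM (median 1246), so much of the sum came from the highest. In edgeR (quasi-likelihood test, Benjamini-Hochberg adjusted p under 0.05), 1787 of the 13709 genes tested differed between UVB and control, which is 13.0%. They comprised 863 higher genes (6.30% of those tested) and 924 lower genes (6.74%). Leaving out a library changed that total to between 851 (without control c) and 1898 (without control a). Over all genes tested the median log2 fold change was -0.0058, and 49.1% were above 0.

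Respiratory chain genes differed little between the groups, and most of the small differences were toward higher values after UVB. Of the 53 members 52 passed the low-count filter, and 3 of them rose, Cox7b, Cox6c and Ndufb11 (5.77%, against 6.30% called higher over all genes); none fell (6.74% over all genes). The 3 are accessory subunits of complexes IV and I. The share called higher was thus close to that over all genes, while the share called in either direction was smaller (5.77%, against 13.0%). Of the 52, 11 had an unadjusted p under 0.05, of which 1, Ndufaf6, was lower. The share of all genes tested under that unadjusted p was not counted. This number, and those given for other sets below, therefore cannot be read as high or low. DESeq2 called 4 members higher (Ndufs8 in addition) and 0 lower. A fold change above 0 was measured for 40 members and below 0 for 12. Their median log2 fold change was 0.064, a difference of 4.56%, and their range was -0.35 to 0.34. For 40 of the 52 the whole 95% interval lay within 1.25-fold of no change in either direction, so for those a change larger than that lies outside the interval. Of all 76 tested rows with a matching symbol 4 rose, the fourth being Atp5mc3 of complex V. The median of these rows was 0.075, with 56 above 0 and 20 below. In bulk tissue, fewer cells of a type and less RNA per cell cannot be told apart.

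Few calls held when a library was left out. Among members, 2 genes were called without control a (Cox7b and Ndufaf4), 1 without UVB c (Ndufs8), and 0 without UVB a, UVB b, control b, control c or control d (edgeR adjusted p under 0.05). Every UVB library lay above every control for 10 members (19.2%, against 12.8% of all genes tested), and below every control for 1, Ndufaf6 (1.92%, against 13.8%). By library, the median deviation of the 52 members from the control mean, on the log2 scale, was 0.018 in control a, -0.040 in control b, 0.027 in control c and -0.0014 in control d. It was 0.078 in UVB a, 0.15 in UVB b and -0.032 in UVB c. UVB a and UVB b thus stood above the controls, and UVB c lay within their range.

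**Figure D1:**
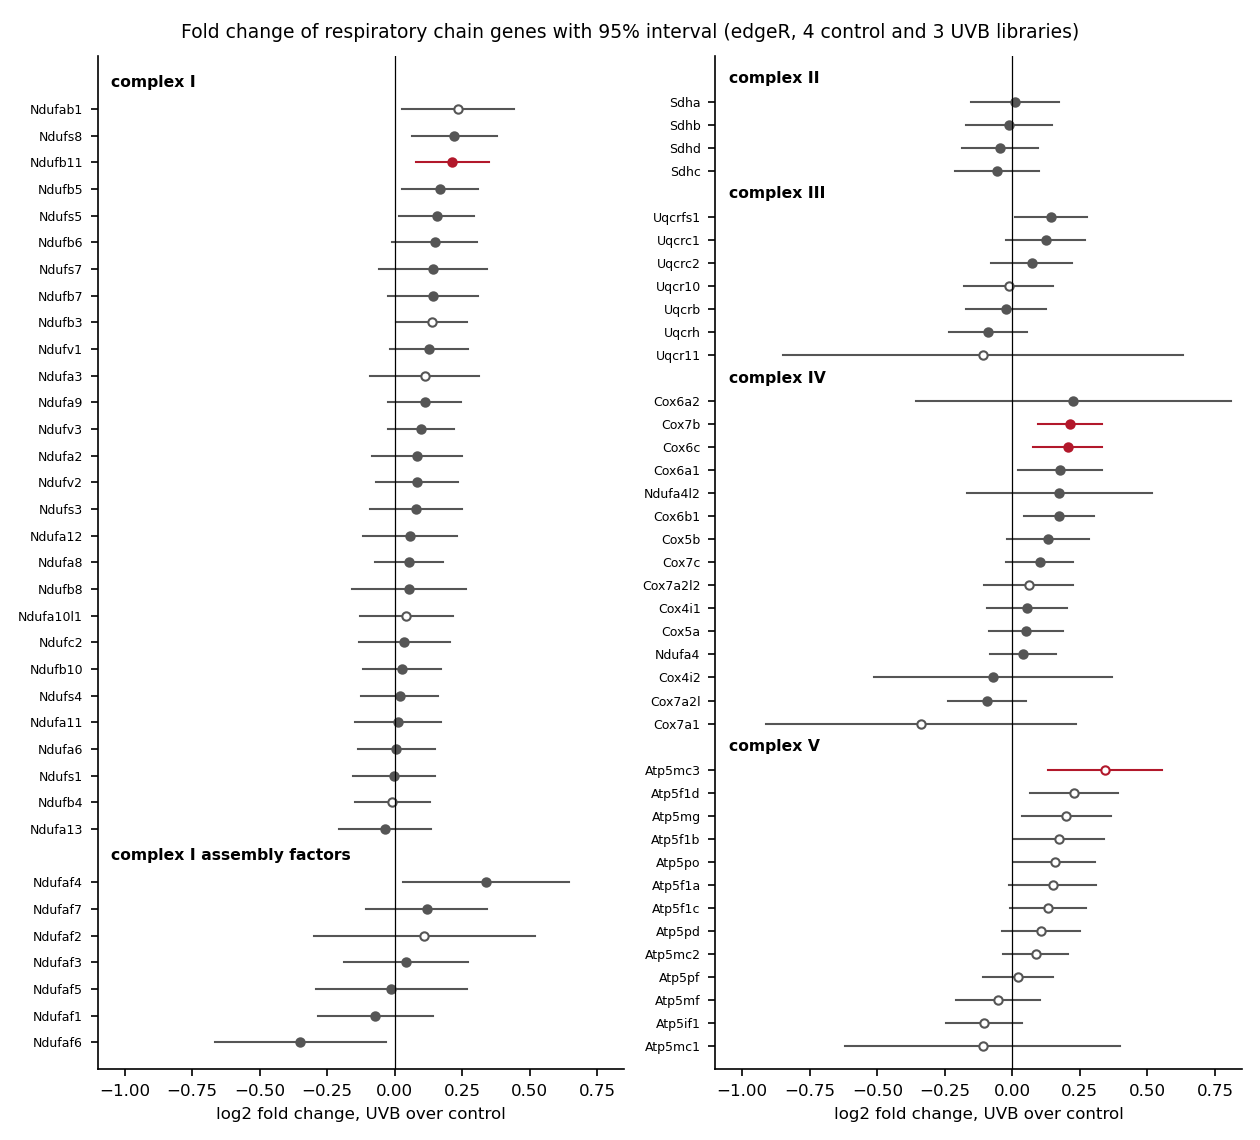
Log2 fold change of UVB over control (horizontal axis) with its 95% interval from edgeR for each tested gene, by complex; filled points are members, open points rows without a biotype, red marks an adjusted p under 0.05, and Ndufs6 and a member not reported here are left out. Most points lie between 0 and 0.25, those of complex II on 0, and the 4 red genes are Ndufb11, Cox7b, Cox6c and Atp5mc3.

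The subunits were among the abundant transcripts of the gland. Of the 53 members 43 ranked in the top 10% of all genes by mean TPM, and so did 61 of the 80 rows with a matching symbol. The highest was Atp5f1b, which encodes the catalytic beta subunit of ATP synthase, with 1483 to 1574 TPM in the controls and 1621 to 1806 TPM after UVB. It ranked 58th of all genes. Cox4i1, a nuclear subunit of complex IV, was the highest of the members by the rule with 895 to 929 TPM in controls and 899 to 996 TPM after UVB. The assembly factors stood far lower, with means over all libraries from 10.3 TPM for Ndufaf7 to 45.7 TPM for Ndufaf3. Cox8c, known as a testis isoform, had 0 counts in all 7 libraries, which allows up to 3 counts in each.

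**Figure D2:**
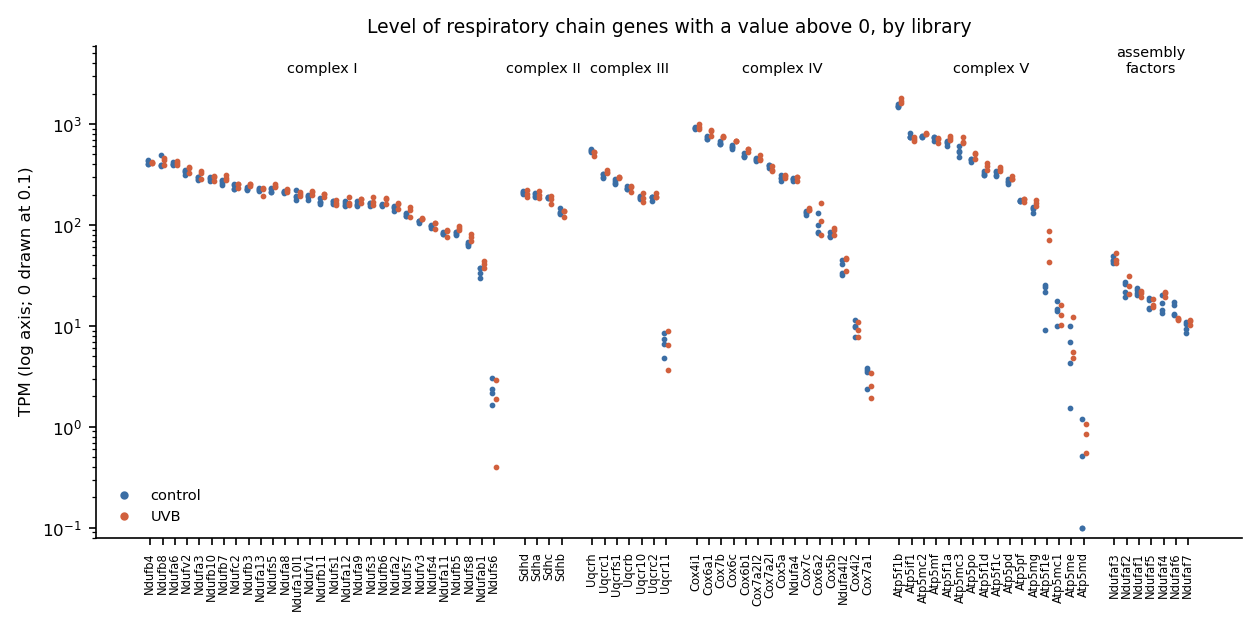
TPM of each gene (vertical log axis) in the 4 control (blue) and 3 UVB (orange) libraries, ordered within each complex by the control mean; a value of 0 is drawn at 0.1, and a member not reported here is left out. The 2 colours largely coincide, and the assembly factors lie below most of the subunits.

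Complex I, the entry point for electrons from NADH, had 22 of 24 members with a fold change above 0. Of the 24, 1 rose (4.17%, against 6.30% called higher over all genes tested). The gene that passed was Ndufb11, which encodes an accessory subunit of the membrane arm (NCBI gene 299310). It measured 75.2, 71.9, 80.0 and 75.0 CPM (counts scaled here to a common library total) in controls a to d. After UVB it measured 88.5, 90.3 and 83.9 CPM in UVB a to c. The lowest UVB library was above the highest control. The difference was 0.21 on the log2 scale (SE 0.060, edgeR adjusted p = 0.0461), and the call was lost in 10 of 16 alternatives, with adjusted p up to 0.123.

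Among the core subunits that carry out electron transfer, Ndufs8, which holds iron-sulfur clusters, had the largest difference. It measured 63.4, 59.3, 63.8 and 61.9 CPM in the controls and 71.6, 79.1 and 66.5 CPM after UVB. The groups did not overlap, but the gene missed the threshold (log2 fold change 0.22, SE 0.070, edgeR adjusted p = 0.0679). It was called in 3 of 16 alternatives, with adjusted p from 0.0453 to 0.195. Ndufs1 (-0.0023) and the accessory gene Ndufa6 (0.01) lay on 0, and the NADH-binding Ndufv1 (0.13) and Ndufv2 (0.08) between. The median log2 fold change was 0.082 over the 7 core subunits and 0.070 over the other 22 tested accessory rows. Besides Ndufb11 and Ndufs8, the accessory genes Ndufb5 (0.17, edgeR adjusted p = 0.113), Ndufs5 (0.15, 0.130) and Ndufv3 (0.10, 0.269) had groups that did not overlap without passing the test.

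The most abundant complex I transcripts were Ndufb4 (a row without a biotype) and Ndufb8, both of the membrane arm. Ndufb4 averaged 418 TPM in controls and 418 TPM after UVB, with a log2 fold change of -0.01 whose sign changed between fits. Ndufb8 averaged 417 TPM and 431 TPM (log2 fold change 0.05, SE 0.094, edgeR adjusted p = 0.748). The mitochondrial acyl carrier protein gene Ndufab1, without a biotype, had the largest complex I value at 0.24 (SE 0.093, edgeR adjusted p = 0.125). Ndufs6, the row marked as a pseudogene, held at most 0.586 CPM in any library, with a log2 fold change of -0.44 (SE 0.54).

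Complex II, the succinate dehydrogenase, differed little between the groups. No gene of its 4 passed the test, and none had an unadjusted p under 0.05. Sdha, the flavoprotein that oxidises succinate, measured 348, 328, 345 and 331 CPM in controls a to d and 335, 374 and 313 CPM in UVB a to c, which overlap. Its log2 fold change was 0.01 (SE 0.072, 95% interval -0.15 to 0.17). Sdhb, the iron-sulfur subunit, had a log2 fold change of -0.01 (-0.17 to 0.15). The membrane anchors Sdhc and Sdhd had -0.06 (-0.21 to 0.097) and -0.05 (-0.19 to 0.094). All 4 intervals excluded a change of 1.25-fold in either direction. UVB c gave the lowest value of all libraries for each of the 4 genes, at 129 CPM for Sdhc against 144 to 152 CPM in the controls. Without UVB c the fold changes of Sdhc and Sdhd were above 0 (0.016 and 0.011).

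Complex III, which passes electrons to cytochrome c, had no member past the threshold. Uqcrfs1 encodes its Rieske iron-sulfur protein and measured 211, 199, 212 and 194 CPM in the controls and 223, 233 and 220.2 CPM after UVB. The groups did not overlap, yet the difference did not pass (log2 fold change 0.14, SE 0.059, edgeR adjusted p = 0.140). The core protein gene Uqcrc1 had 0.12 (SE 0.065, adjusted p = 0.239), and the hinge protein gene Uqcrh, the most abundant of the complex, had -0.09 (SE 0.065, adjusted p = 0.388). All 5 intervals lay within 1.25-fold. Uqcr10 and Uqcr11 carried no biotype and had -0.01 and -0.11, the latter at 0.848 to 2.13 CPM. Cyc1, which encodes the cytochrome c1 subunit, belongs to the same complex but falls outside the symbol rule. It rose from 181, 157, 167 and 160.4 CPM to 199, 212 and 185 CPM (log2 fold change 0.26, SE 0.071, edgeR adjusted p = 0.0418), and lost that call in 5 of the fits that left out a library.

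Complex IV, cytochrome c oxidase, had 2 of 13 tested members that rose (15.4%, against 6.30% called higher over all genes tested). A fold change above 0 was measured for 11. Cox7b (NCBI gene 303393), an accessory subunit, measured 124, 123, 128 and 123 CPM in controls a to d and 144, 149.6 and 140.0 CPM in UVB a to c. The controls were close together and every UVB library was above them. The log2 fold change was 0.21 (SE 0.053, 95% interval 0.095 to 0.33, edgeR adjusted p = 0.0301), a fold of 1.16. It was called in 10 of 16 alternatives and missed the threshold whenever a library other than control a was left out, with adjusted p from 0.0515 to 0.0826.

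Cox6c (NCBI gene 54322), another accessory subunit, measured 70.9, 71.4, 75.7 and 74.8 CPM in the controls. Its UVB values were 82.7, 88.0 and 82.4 CPM. Again the groups did not overlap (log2 fold change 0.20, SE 0.057, edgeR adjusted p = 0.0446). The call held in 8 of 16 alternatives and in none that left out a library, with adjusted p up to 0.126. Cox6b1 (0.17, SE 0.058, adjusted p = 0.0815) and Cox7c (0.10, SE 0.055, adjusted p = 0.254) had groups apart without a call. Cox4i1 at 0.05 (SE 0.065, adjusted p = 0.622), Cox5a at 0.05 and Ndufa4 at 0.04 were nearer 0. Cox7a2l, which encodes a protein that joins complexes III and IV, had -0.09 (SE 0.065, adjusted p = 0.366).

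Complex V, the ATP synthase, is described from its 16 rows without a biotype, of which 13 were tested. Of these 1 rose (7.69%, against 6.30% called higher over all genes tested), and 10 had a fold change above 0. Atp5mc3 (NCBI gene 114630) is one of the genes for the c subunit, whose copies form the rotating ring in the membrane. It measured 166, 164, 144 and 188 CPM in controls a to d and 196, 230.4 and 202 CPM in UVB a to c, so that every UVB library was above every control although the controls varied widely. The log2 fold change was 0.34 (SE 0.094, 95% interval 0.13 to 0.55, edgeR adjusted p = 0.0419), the largest among the 13 tested rows. It was called in 10 of 16 alternatives, with adjusted p up to 0.127, and without a library the call held only when control d was left out (0.0331).

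**Figure D3:**
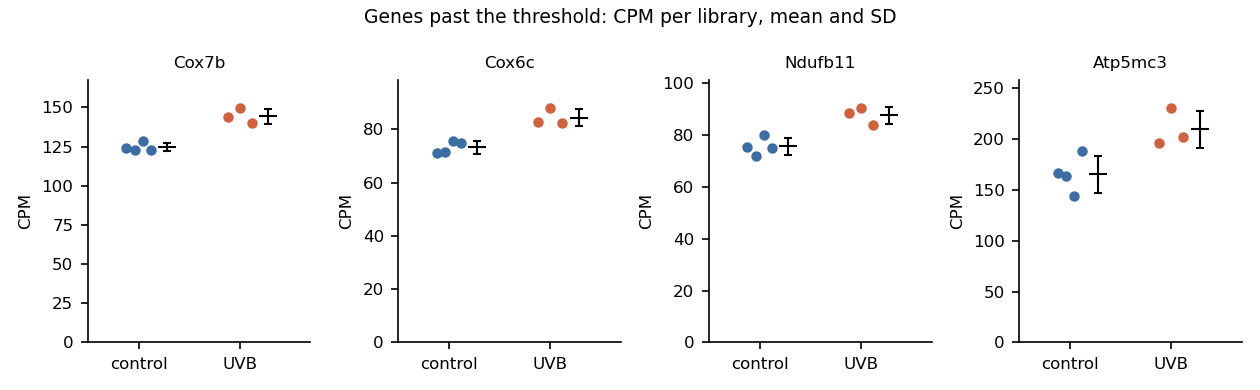
CPM (vertical axes from 0) of the 4 genes past the threshold in each control (blue) and UVB (orange) library, with the mean and SD beside them. In each panel the 3 UVB points lie above the 4 control points, by fold changes of 1.15 to 1.27.

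The catalytic head of complex V moved by smaller amounts that did not pass. Atp5f1b, the beta subunit, measured 1557, 1543, 1585 and 1539 CPM in controls and 1717, 1885 and 1661 CPM after UVB, without overlap (log2 fold change 0.17, SE 0.074, edgeR adjusted p = 0.152). Atp5f1d, the delta subunit of the central stalk, had 0.23 (SE 0.072, adjusted p = 0.0666) and was called in 4 of 16 alternatives. Atp5f1a (alpha subunit, 0.15), Atp5f1c (gamma subunit, 0.13), Atp5mc2 (0.09) and Atp5mg (0.20) also had every UVB library above every control and no call. Of the 13 tested rows, 6 had every UVB library above every control (46.2%, against 12.8% of all genes tested). The groups lay apart in the other direction for 1 (7.69%, against 13.8%). Atp5if1, which encodes the inhibitor that stops the enzyme from running backward, was the one complex V gene with every UVB library below every control (131 to 144.5 CPM against 145.4 to 161 CPM), but it missed the threshold (log2 fold change -0.10, SE 0.063, adjusted p = 0.301).

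Atp5f1e, the epsilon subunit gene, was too scarce for the low-count filter. It held 5, 4, 7 and 2 counts in controls a to d and 14, 11 and 19 counts in UVB a to c. The groups did not overlap. Without that filter its log2 fold change was 1.66 (edgeR adjusted p = 0.0402), and that unfiltered fit was not repeated with a library left out. With the filter, Atp5f1e was tested and called in edgeR without control a (1.76, adjusted p = 0.0438) or without UVB b (1.87, 0.0463). It was tested and not called without control b (1.65, 0.0725) or without UVB a (1.60, 0.0820). RefSeq lists 1 pseudogene named after it. Atp5me held 1 to 10 counts and Atp5md 0 to 3. Neither passed the filter, and without it neither was called (edgeR adjusted p = 0.691 and 0.723).

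The Ndufaf assembly factors, which help put complex I together without staying in it, went both ways. Ndufaf6 measured 8.96, 7.05, 9.38 and 7.31 CPM in the controls and 6.49, 6.50 and 6.28 CPM after UVB, all below the controls (log2 fold change -0.35, SE 0.14, edgeR adjusted p = 0.134). Ndufaf4 measured 21.2, 14.0, 17.1 and 15.04 CPM in the controls and 19.7, 21.7 and 22.5 CPM after UVB, which overlap (0.34, SE 0.14, adjusted p = 0.134). Neither passed. The other members were between -0.07 (Ndufaf1) and 0.12 (Ndufaf7), and Ndufaf2, without a biotype, had 0.11.

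Set side by side, the complexes differed in how far they lay from 0. The median log2 fold change was 0.080 for complex I (24 genes), -0.029 for complex II (4), 0.072 for complex III (5), 0.13 for complex IV (13) and 0.13 for complex V (13 rows without a biotype). With a library left out, the median stayed above 0 for complexes I (0.039 to 0.13), III (0.026 to 0.10), IV (0.086 to 0.13) and V (0.099 to 0.16), while that of complex II was 0.034 without UVB c. Over all 7 matching rows complex III had a median of -0.013, with a sign that changed between fits. On that basis, with rows without a biotype included, complex IV had 0.10 (15 tested rows) and complex I 0.080 (30). The summed TPM of complex IV was 5136 ± 98.2 (SD) in the 4 controls and 5578 ± 215 (SD) in the 3 UVB libraries, a ratio of 1.09, over all matching rows. For complex V it was 6657 ± 80.8 and 7288 ± 314, a ratio of 1.09. In both, every UVB sum was above every control sum. Complex I had 5913 ± 108 and 6237 ± 313 (ratio 1.05), and complex III 1737 ± 46.5 and 1769 ± 86.6 (1.02). Complex II had 732 ± 12.3 and 715 ± 51.9 (0.98). In all of these the groups overlapped. Each sum covers only the rows with a matching symbol, without subunits encoded in mitochondrial DNA. Among nuclear subunits with no row were Ndufa1, Ndufa5, Ndufa7, Ndufb1, Ndufb2, Ndufb9, Ndufc1, Uqcrq and Atp5pb.

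To set the complexes against each other within a library, the sums were divided by that of complex II, a ratio formed after the values had been seen and not tested. For complex IV it was 7.02, 7.01, 7.04 and 7.01 in controls a to d and 7.54, 7.76 and 8.14 in UVB a to c. The 4 controls were nearly equal and all 3 UVB libraries were higher. For complex I it was 8.13, 8.01, 8.10 and 8.10 against 8.48, 8.74 and 8.97, and for complex V 9.17, 9.003, 8.98 and 9.25 against 9.79, 10.2 and 10.6. The groups did not overlap for complex III either, but only just, with 2.34 to 2.41 in the controls and 2.41 to 2.55 after UVB. UVB c, the lowest UVB library in the sums, had the highest ratio for all 4, and it also had the lowest complex II sum, 655 TPM against 724 to 750 TPM in the other libraries.

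**Figure D4:**
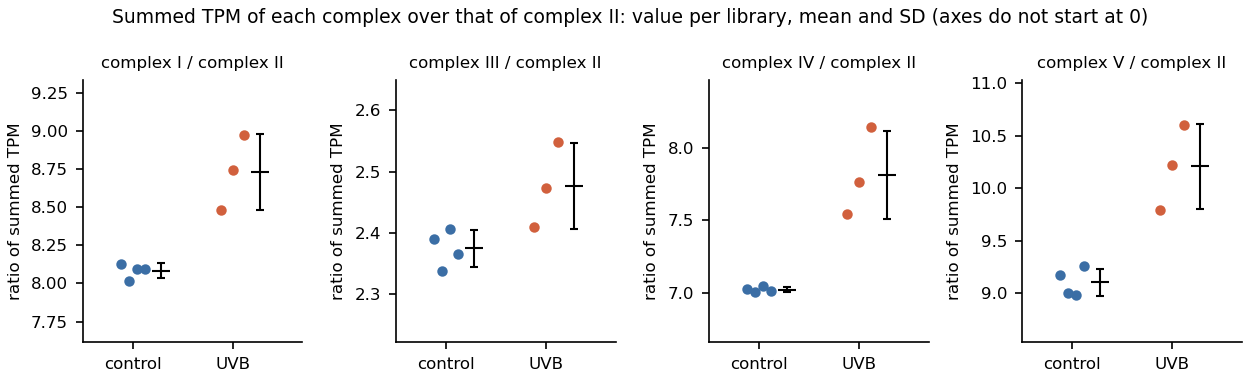
Ratio of the summed TPM of complexes I, III, IV and V to that of complex II (vertical axes, not starting at 0) in each control (blue) and UVB (orange) library, with mean and SD. The control points lie close together, at 7.02 ± 0.017 for complex IV, and the UVB points lie above them in all 4 panels, barely so for complex III.

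Several subunits of complex IV come as isoforms with known tissue preferences, which bear on the makeup of the dissected tissue. Cox6a2 and Cox7a1 are the forms of heart and skeletal muscle. Cox6a2 measured 84.5, 83.4, 130.2 and 99.6 TPM in controls a to d and 165, 108 and 78.7 TPM in UVB a to c, widely overlapping (log2 fold change 0.23, SE 0.25, edgeR adjusted p = 0.599). It made up 9.92% to 15.4% of the Cox6a1 and Cox6a2 total in controls and 9.35% to 16.1% after UVB. Cox6a1, the general form, had 0.18 (SE 0.069, adjusted p = 0.125). Cox7a1, without a biotype, was scarce at 1.94 to 3.85 TPM (log2 fold change -0.34, SE 0.26, adjusted p = 0.414).

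Skeletal muscle lies beside the gland in the lid, and 30 listed muscle markers summed to 4045 to 5751 TPM in controls and 2967 to 5149 TPM after UVB. Their median log2 fold change was -0.28, with 3 of 30 called higher (Des, Actn2, Tnnt2) and 2 lower (Actn3, Casq1). Calls in either direction made up 16.7% of the list, against 13.0% of all genes tested (6.30% higher and 6.74% lower). The creatine kinase gene Ckm had -0.62 (SE 0.27, edgeR adjusted p = 0.174). The part of muscle in the subunit values was not tested. Cox4i2, an isoform known from lung and low oxygen, made up 0.840% to 1.22% of the Cox4i total in controls and 0.852% to 1.16% after UVB, with a log2 fold change of -0.07 (SE 0.20). Ndufa4l2, the hypoxia-linked relative of Ndufa4, made up 11.7% ± 1.94 (SD, n = 4) and 12.8% ± 2.02 (SD, n = 3) of the Ndufa4 pair. In the c ring of complex V, Atp5mc3 made up 41.1% ± 2.82 (SD, n = 4) of the TPM of its 3 genes in controls and 45.4% ± 1.49 (SD, n = 3) after UVB, and Atp5mc2 57.9% ± 2.70 and 53.7% ± 1.60. The Atp5mc3 shares overlapped, from 37.4% to 44.3% in controls and from 44.2% to 47.1% after UVB. No row read carried the symbol Cox6b2, Cox7a2, Cox8a or Cox8b, so the sums of complex IV leave these out.

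**Figure D5:**
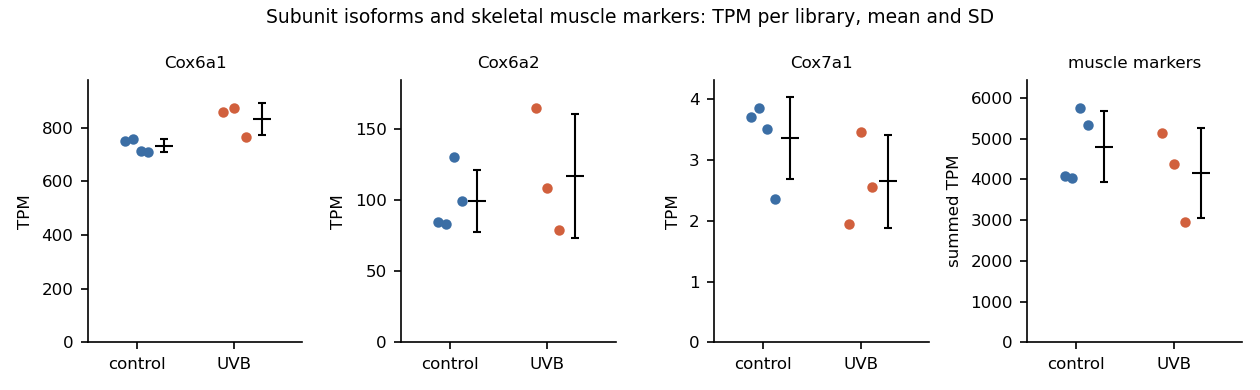
TPM of Cox6a1, Cox6a2 and Cox7a1 and the summed TPM of 30 skeletal muscle markers (vertical axes from 0) in each control (blue) and UVB (orange) library, with mean and SD. Cox6a2 and the muscle sum vary within groups far more than Cox6a1, and their groups overlap.

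Other mitochondrial genes were read from lists. Of 36 further assembly factors 3 rose and none fell (8.33% higher, against 6.30% of all genes; median 0.089): Atpaf2, a chaperone of the ATP synthase head, at 0.36 (SE 0.068, edgeR adjusted p = 0.0117, called in 16 of 16 alternatives), Pet100, a complex IV assembly factor, at 0.32 (adjusted p = 0.0243), and Slirp, which stabilises mitochondrial transcripts, at 0.34 (0.0280). Pet100 and Slirp were each called in 11 of 16 alternatives. Of 23 electron carriers and nucleotide exchangers 3 rose and none fell (13.0% higher; median 0.12). Besides Cyc1 these were Slc25a5, an ADP/ATP carrier of the inner membrane (0.28, edgeR adjusted p = 0.0280), and Coq5, a ubiquinone synthesis enzyme (0.28, adjusted p = 0.0280), each called in 11 of 16 alternatives. Cytochrome c itself, Cycs, had 0.18 (adjusted p = 0.150). None of 18 citric acid cycle genes passed in edgeR, with 2 at an unadjusted p under 0.05 and a median of 0.097. Their smallest p-values were those of Mdh2 (malate dehydrogenase, 0.20, adjusted p = 0.0676, called in 3 of 16 alternatives), Pdhb (0.21, 0.124) and Dld (0.18, 0.195), and the citrate synthase gene Cs had 0.14 (0.271). None of the 13 listed symbols of subunits encoded in mitochondrial DNA had a row, so the sums per complex leave them out.

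Among 19 regulators of mitochondrial biogenesis 1 rose and none fell (5.26% higher, against 6.30% of all genes; median 0.079). It was Polrmt, the RNA polymerase of mitochondrial DNA, which measured 23.6, 22.4, 26.0 and 22.9 CPM in controls and 30.1, 32.9 and 29.4 CPM after UVB (log2 fold change 0.38, SE 0.080, edgeR adjusted p = 0.0179, called in 14 of 16 alternatives). Ppargc1a, the coactivator known to drive mitochondrial biogenesis, measured 4.34, 4.34, 6.28 and 3.68 CPM in controls a to d and 3.98, 2.21 and 0.963 CPM in UVB a to c, which overlap. Its log2 fold change of -0.99 (SE 0.41) did not pass (edgeR adjusted p = 0.146). It ran from -1.56 to -0.61 with a library left out and was called in 1 of 16 alternatives, without UVB a (adjusted p = 0.0354). Tfam (0.15, adjusted p = 0.159), Tfb2m (0.22, 0.0796), Yy1 (0.16, 0.106), Esrra (0.14, 0.349) and Nrf1 (0.05, 0.695), the genes of factors that act on mitochondrial or subunit promoters, did not pass either.

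Neighbouring routes of energy metabolism moved unevenly. Of 15 glycolysis genes 5 rose and 1 fell (33.3% higher, against 6.30% of all genes), with a median of 0.097. Eno1 (0.53, edgeR adjusted p = 0.00605), Pkm (0.52, 0.00348), Pgam1 (0.44, 0.0108), Ldha (0.41, 0.0440, called in 10 of 16 alternatives) and Pgk1 (0.35, 0.0101) were higher. Ldhb, the lactate dehydrogenase form of oxidative tissues, fell from 349.7 to 365 CPM in the controls to 281 to 299 CPM after UVB (-0.29, edgeR adjusted p = 0.0131). Of 14 genes of fatty acid oxidation 1 rose and none fell (7.14% higher; median 0.10): Acads, the short-chain acyl-CoA dehydrogenase (0.31, edgeR adjusted p = 0.0273, called in 11 of 16 alternatives), ahead of Cpt1a (0.36, 0.0655) and Hadh (0.24, 0.0781). Of 8 uncoupling and antioxidant genes 1 rose and none fell (12.5% higher; median 0.081): Sod2, the superoxide dismutase of the matrix (0.29, SE 0.057, edgeR adjusted p = 0.0133, called in 16 of 16 alternatives), while Prdx3 (0.20, 0.0985) and Ucp2 (0.21, 0.143) did not pass. Ucp1, the marker of brown fat, held 0 to 2 counts in every library.

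Markers of cell types that the dissected tissue can hold were read beside the subunits, against 6.30% of all genes called higher and 6.74% lower. Of 12 meibocyte markers 3 fell and none rose (median -0.18), among them Awat2, a wax ester synthesis enzyme (-0.66, edgeR adjusted p = 0.00453). Of 8 adipocyte markers 2 fell, Cidea and Cidec, and none was called higher (median -0.29). Lep and Adrb3 were too scarce to test. The fold changes of the 8 ran from -2.08 to 1.60, with 6 below 0 and 2 above. The summed level of the list was 2367 to 2728 TPM in controls and 1710 to 1919 TPM after UVB, most of it from Cidea alone (2258 to 2613 TPM and 1613 to 1801 TPM). Of 14 macrophage and neutrophil markers 6 rose and none fell (42.9% higher; median 0.41; 1776 to 2195 TPM against 2166 to 2345 TPM), and of 9 fibroblast and endothelial markers 5 rose and none fell (55.6% higher; median 0.46; 920 to 1433 TPM against 1209 to 1941 TPM). Of 11 epidermal markers 1 rose and 2 fell (27.3% called; median 0.053; 12869 to 15735 TPM against 15173 to 18637 TPM). The part of these cell types in the subunit values was not tested.

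Some values carry a limit from counting. Counts were not whole in any library for 13 of the 53 members, and Cox4i1, Cox6b1, Ndufs5, Ndufv3 and Uqcrc2 are among them. Their levels are uncertain. RefSeq (GRCr8) names at least 1 pseudogene after each of 22 members, with 3 each for Cox7b and Cox6c and none for Ndufb11 or Atp5mc3. It places another gene over 17 members, Ndufb5, Uqcrfs1, Cox7c and Sdha among them, and over Atp5f1b and Atp5f1d, and the use of strand in counting is not given in the sources used here. Counts of the 4 genes past the threshold were whole in all 7 libraries, and none of the 4 overlaps another gene there.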

How the data were processed

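RNA sequencing of 7 meibomian gland libraries was analysed, 4 control and 3 UVB. The authors deposited a table of counts per gene, taken here as estimated counts, since 12.48% of the values were not whole, and a table of TPM values, whose deposited sums were 82.0% to 84.1% of the full TPM total. Per the submitters' processing notes, FastQC, Trimmomatic, DRAGEN, Picard and the build rn7 were used; the counting step, annotation and strand are not given in the sources used here. Unquoted commas moved the cells of 2281 rows, and each row was therefore read from its right-hand end, while 5 rows without a value were left out.

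Rounded counts went into edgeR 4.0.16 under R 4.3.3, with TMM, filterByExpr and the robust quasi-likelihood test, two-sided, adjusted by Benjamini-Hochberg over all 13709 genes tested, at a threshold of 0.05. CPM values are TMM-scaled. Libraries were not merged for the fits, and each held at least 20680237 counts. Intervals are at 95%. The design assumed whole counts, and rounding was added. The other fits used DESeq2 1.42.0, voom in limma 3.58.1, 3 other scalings, 2 other filters, limma on log2(TPM + 1) and log2(TPM + 0.1) with a mean TPM of at least 1, and each library left out, 16 fits in all. Fits were checked on simulated data. In these, edgeR did not recover changes of 1.25-fold, so a missing call does not show that a gene is unchanged. Members and lists were chosen with earlier results of these data known. Of 261 listed symbols 221 were in the files. Named genes were members past the threshold, the 2 highest control levels and the largest change per complex, isoform pairs, 8 fixed genes and the 3 smallest p-values per mitochondrial list. Other genes in the text were picked after their values were seen. RefSeq GRCr8 gave 53 of 53 member names, and no genome was used. The values of 1 member are not reported here, though it is included in the counts and sums.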

Additional observations from a re-analysis of the deposited data

Results flagged for a closer look

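In 6 of 69 values compared within the 4 controls, a single control stood far from the rest; 3.45 such values arise by chance. Ndufb8, an accessory subunit of complex I, reached 108.986 CPM in control b, while the others held 87.1 to 89.4 CPM (gap of 0.896 of the range). The ATP synthase inhibitor gene Atp5if1 reached 160.555 CPM in control d, and 145 to 147 CPM elsewhere (0.897). Pgk1, of glycolysis, was at 191.787 CPM in control b and at 207 to 208 CPM in the others (0.901). Ucp1 stood at 0.0466749 CPM in control b, a single count, and at 0 in the others. The summed TPM of complex II was 749.88 in control c, while the rest lay at 724 to 727 (0.871), and that of complex IV was 5282.74 in control c, with 5076 to 5096 in the rest (0.900).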

How the results depend on the processing

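No paired analysis was possible because no column name shows a replicate number. Of the 830 values of named genes under an alternative, 741 kept their direction and their side of the threshold, 62 lost a call, 10 gained a call and 17 changed sign, all 17 of genes that were not called. Members called higher numbered 1 with no low-count filter, and matching rows called higher numbered 7 under DESeq2; the causes were not tested. Over the fits that left out a library, genes called ran from 851 to 1898 in all, from 421 to 927 higher and from 430 to 971 lower, members called higher from 0 to 2 and matching rows called higher from 0 to 4, with fewer libraries in each. The sign of Ndufb4 was positive under log2(TPM + 1) (0.000821) and log2(TPM + 0.1) (0.000825). Leaving out a library gave log2 fold changes on both sides of 0 for 10 of the named genes: Ndufb4 from -0.0405 to 0.0121, Ndufs6 from -0.963 to 0.0498, Sdha from -0.0586 to 0.0681, Sdhc from -0.103 to 0.0155, Sdhd from -0.0890 to 0.0107, Cox4i1 from -0.00309 to 0.0933, Cox4i2 from -0.190 to 0.0532, Cox6a2 from -0.0778 to 0.453, Ndufaf2 from -0.0365 to 0.248 and Ndufaf3 from -0.0732 to 0.123. Such ranges were not formed for rows outside the named genes, Ndufs1, Ndufa6 and Sdhb among them. The causes were not tested. Median fold changes and summed TPM ratios per complex moved by less than the spread between libraries; the ratios stayed within 1.035 to 1.08 for complex I and 1.07 to 1.11 for complex IV. For 37 of the 46 tested subunits by the rule, the whole edgeR interval lay within 1.25-fold of no change. It did so for 7 of 13 tested members of complex IV and 8 of 13 tested rows of complex V. The interval reached beyond 1.25-fold for Ndufaf2, Ndufaf6 and Cox7a1, which had fewer counts. It also did for abundant genes, Atp5f1b, Cox7b and Cox6c among them, so this was not confined to genes with few counts.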
